A study of Homo sapiens with 8 samples.

Results

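The clustered protocadherin genes of chromosome 5 were followed in nascent RNA of 2 human colorectal cancer cell lines. Members were the gene models on chromosome 5 whose symbol starts with PCDHA, PCDHB or PCDHG, and 19 of the 18638 models in the deposited count tables met this rule. They were PCDHA1, the 16 models PCDHB1 to PCDHB16, PCDHGA1 and PCDHGB7, so they cover 19 of the 53 protein-coding genes that RefSeq lists for the clusters (15 PCDHA, 16 PCDHB and 22 PCDHG). The C-type members PCDHAC1, PCDHAC2, PCDHGC3, PCDHGC4 and PCDHGC5 were not among the rows analysed here. All 19 models lie on the plus strand between positions 140786136 and 141512981 of chromosome 5 (hg38), a stretch of 726.8 kb.

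Factory-seq, which releases RNA held at sites of transcription from isolated nuclei, had been applied to 8 libraries in 4 groups of 2. DLD-1 cells carried mAID and mClover tags on POLR2A, the gene of RPB1 (the catalytic subunit of RNA polymerase II), together with a Tet-driven OsTIR1, and were either untreated or given auxin for 14 h at 500 µM. TIR1, which doxycycline induces over 24 h per the labels, targets mAID-tagged protein for destruction once auxin is present. HCT116 cells carried the mAID tag on TOP2A, and were either untreated TOP2A-mAID cells or cells whose genotype label reads TOP2B-/- on top of TOP2A-mAID. For this last group the titles read as control and the treatment field as auxin for 14 h. Doxycycline for 24 h and auxin at 500 µM are recorded for it, as for the DLD-1 cells given auxin. Genotype, auxin and doxycycline therefore cannot be told apart there. Doxycycline may differ from the untreated cells in both lines. The sources used here do not say whether untreated cells had doxycycline or whether the lines are single clones. Asynchronous cells are named in every title, and a sort for G1 cells is mentioned without saying to which libraries it applied.

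Clustered protocadherins are cadherin-type adhesion proteins. Each variable exon of the PCDHA and PCDHG clusters has a promoter of its own and is spliced to constant exons that the cluster shares, whereas PCDHB genes are single-exon genes. In neurons the promoters are chosen in varying combinations, which gives single cells distinct surface identities. CTCF and cohesin bind promoters and downstream enhancers of the clusters and loop them together, and many of the promoters share a conserved element that holds the letters CGCT. In cells outside the nervous system the clusters are often silenced by DNA methylation and SMCHD1.

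The structure of the models limited what could be counted. The PCDHA1 model spans 226209 bp and 8723 bp of it were counted (3.86%), close to the 8716 bp from its start to that of PCDHA2 in RefSeq. The PCDHGA1 model spans 182295 bp and 8075 bp of it were counted (4.43%), which equals the distance from its start to that of PCDHGA2. Values under these 2 names therefore describe the first variable exon and the DNA just downstream of it, without the constant exons. PCDHGB7 was counted over 2 bp and received 0, 1, 3 and 0 reads in the DLD-1 libraries and 0 in every HCT116 library, so no level is given for it. The PCDHB models are counted over their full length, 2587 to 4532 bp.

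Promoter sequences were read from RefSeq (GRCh38.p14) for 17 of the 19 members, with PCDHB6 and PCDHB11 missing. Over the 250 bases before the annotated start, and on both strands, CGCT occurred in 16 of the 17 member promoters and in 64.8% of all 35116 promoters. The longer run TGGCGCT, which contains CGCT, occurred in 12 of the 17, all of them PCDHB genes and all on the plus strand, and in 3.13% of all promoters. It was found in 12 of 14 PCDHB promoters and not in those of PCDHB1 and PCDHB8, nor in those of PCDHA1, PCDHGA1 and PCDHGB7. Its first base lay between 82 and 14 bases before the annotated start. A match describes letters in this window, not a bound site. Stretches of up to 70 bases are printed 5′ to 3′ with the match nearest the start in capitals (PCDHB1 holds another CGCT, left in lower case), for PCDHB members with the run and for 3 members with CGCT alone, so that the shared element can be set beside the values given later. The PCDHB2, PCDHB7, PCDHB9 and PCDHB12 windows belong to members with some of the larger fold changes in DLD-1, and PCDHB13 is the member with the smallest. Of the members without the run, PCDHA1, PCDHB8, PCDHB1 and PCDHGA1 had log2 fold changes of 4.99, 3.71, 3.28 and 2.56. Whether the run goes with the size of the change was not tested.
PCDHB2 (chr5:141094524-141094593): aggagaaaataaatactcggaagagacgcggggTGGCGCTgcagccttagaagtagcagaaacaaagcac
PCDHB7 (chr5:141172546-141172615): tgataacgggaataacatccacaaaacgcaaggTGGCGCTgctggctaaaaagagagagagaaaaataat
PCDHB9 (chr5:141187054-141187123): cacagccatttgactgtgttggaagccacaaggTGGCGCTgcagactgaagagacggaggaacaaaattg
PCDHB12 (chr5:141208623-141208692): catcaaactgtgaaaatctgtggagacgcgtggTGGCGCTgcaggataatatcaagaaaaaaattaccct
PCDHB13 (chr5:141213845-141213914): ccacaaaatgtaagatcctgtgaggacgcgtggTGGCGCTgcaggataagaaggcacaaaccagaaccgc
PCDHA1 (chr5:140786066-140786135): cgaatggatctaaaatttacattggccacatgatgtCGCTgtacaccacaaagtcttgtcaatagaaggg
PCDHB1 (chr5:141051254-141051323): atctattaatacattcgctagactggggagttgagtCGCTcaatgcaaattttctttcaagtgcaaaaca
PCDHGA1 (chr5:141330383-141330452): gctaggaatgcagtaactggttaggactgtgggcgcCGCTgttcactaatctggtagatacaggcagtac

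Depth differed between the DLD-1 groups. The controls held 62626875 and 36906755 counts and the auxin libraries 14183633 and 10739622, with 32129400 to 36491540 per library in HCT116. Reads also fell on genes that should be silent. Such genes were taken as the 3095 models, of at least 5000 bp counted, with the lowest control levels in the other cell line, and their median reads per counted kb served as background. This density was 1.23 and 2.92 reads per kb for the DLD-1 controls, then 4.90 and 5.61 with auxin, although the auxin libraries were shallower. Spread over all models, it amounted to 2.25% and 9.05% of the control counts, to 39.5% and 59.8% of the auxin counts, and to at most 3.05% in HCT116. POLR2A nascent RNA stood at 218 and 149 CPM (counts scaled to a common library total) without auxin and at 194 and 138 with it, which does not check a loss of the protein. TOP2B nascent RNA stood at 188 and 186 CPM in HCT116 controls and at 134 in both libraries labelled TOP2B-/- (log2 fold change −0.50, edgeR adjusted p = 0.027). Of 7 colon epithelium markers, the strongest by CPM in the DLD-1 controls were CDH1, KRT8 and KRT18, and KRT20 was near 0 in HCT116.

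In untreated DLD-1 cells most of the members counted were close to silent. For PCDHA and PCDHG this covers only the first variable exon and the DNA just downstream of it. The 19 members together held 244 of 62626875 reads in control 1 and 290 of 36906755 in control 2 (3.90 and 7.86 CPM). Reads per counted kb, given as multiples of the background density of the same library, had a median over the 16 PCDHB members of 1.14 and 1.08, and 9 of 16 members were above 1 in each control. PCDHB9 and PCDHB10 had 0 reads in control 1, which allows up to 3 reads by counting error alone, and 10 and 8 reads in control 2.

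A few members stood above this level. PCDHB14 had 41 and 34 reads in the controls, or 8.39 and 2.94 times background. PCDHB13 had 39 and 25 reads, or 9.03 and 2.44 times background. PCDHGA1, the first variable exon of the PCDHG cluster, had 85 and 60 reads, or 8.54 and 2.54 times background. In both controls these 3 exceeded the 95th percentile of short silent models (counted lengths of 2000 to 10000 bp), and in control 2 PCDHB6 (9 and 22 reads) did so as well. On the scale of reads per counted kb scaled to the library total (RPKM), PCDHB14 (0.199 ± 0.048, SD, n = 2), PCDHB13 (0.186 ± 0.011) and PCDHGA1 (0.185 ± 0.024) differed by less than the spread between replicates. PCDHB6 followed at 0.113 ± 0.098, and the other members with a level lay between 0.031 and 0.089.

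**Figure D1:**
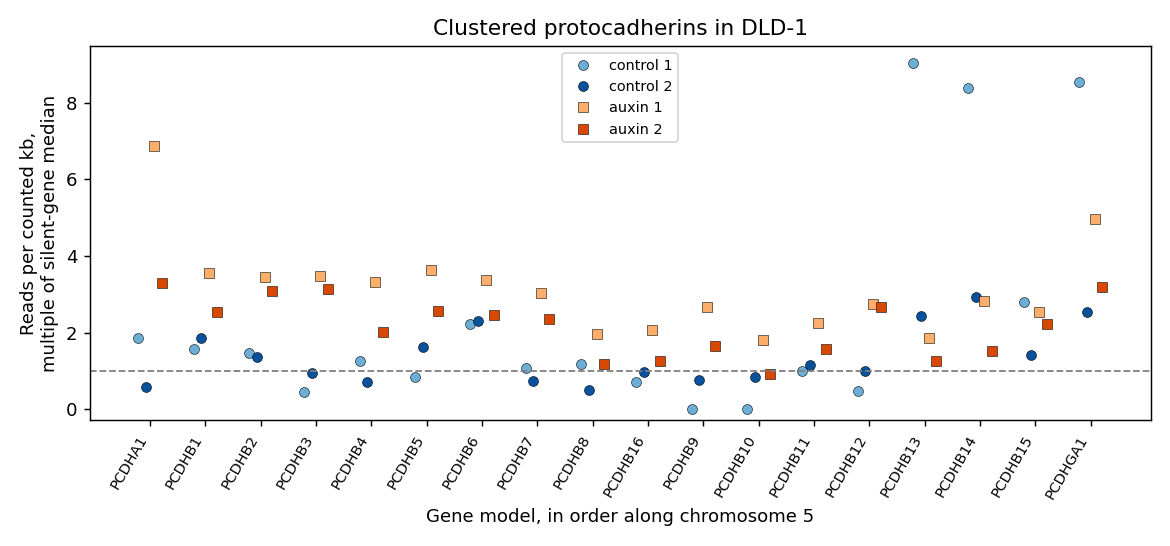
Reads per counted kb of 18 members in DLD-1, as multiples of the silent-gene median of the same library (vertical axis, linear), in order along chromosome 5 (horizontal axis). Circles are the 2 control and squares the 2 auxin libraries, and the dashed line marks 1. PCDHB13, PCDHB14 and PCDHGA1 stand out in control 1, and after auxin 18 and 17 of the 18 members lie above 1.

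After auxin, reads of the members were more numerous in absolute number as well as in share. The 19 members held 1236 of 14183633 reads in auxin library 1 and 919 of 10739622 in auxin library 2 (87.1 and 85.6 CPM). Of the 18 members that passed the filter on low counts, 16 were called higher and 0 lower (edgeR quasi-likelihood test, Benjamini-Hochberg adjusted p under 0.05). Over all 17625 genes tested, 32.2% were called higher and 35.0% lower. The median log2 fold change was 3.61 over the members and −0.06 over all genes tested. Only 3 members reached the filter's level of 0.391 CPM in both controls and 18 did in both auxin libraries, so most members passed through the group where they were higher. Without the filter all 19 were tested, 16 were called higher and their median was 3.61. DESeq2 also called 16. Of all 18380 genes, 5824 were called higher without the filter and 6143 by DESeq2.

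PCDHA1, the first variable exon of the PCDHA cluster, had the largest fitted change, though by no more than the error of several PCDHB members. Without control 2, members such as PCDHB9, PCDHB3, PCDHB12 and PCDHB5 exceeded it (9.40, 6.46, 6.11 and 5.51 against 5.12). The value of 9.40 rests on 0 reads of PCDHB9 in control 1, the only control left. After background subtraction several PCDHB members also exceeded PCDHA1. Its 20 and 15 control reads compared with 294 and 162 after auxin. Its level was 0.042 ± 0.007 RPKM in the controls and 2.05 ± 0.46 after auxin (SD, n = 2), with groups far apart (log2 fold change 4.99, SE 0.42, edgeR adjusted p = 0.0042). Against background it moved from 1.86 and 0.59 times to 6.87 and 3.31 times, the highest multiple among the 18 members in both auxin libraries.

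PCDHB genes, which encode adhesion proteins from single exons, accounted for 14 of the 16 calls. PCDHB3 went from 2 and 10 control reads to 61 and 63 with auxin (log2 fold change 4.54, SE 0.97, edgeR adjusted p = 0.019). PCDHB9 went from 0 and 10 reads to 58 and 41 (4.39, SE 1.39, adjusted p = 0.042). PCDHB7 went from 5 and 8 reads to 56 and 50 (4.26, SE 0.66, adjusted p = 0.0091). In each of these the lowest auxin library held over 4 times the reads of the highest control, in a shallower library.

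PCDHB12 went from 2 and 10 reads to 46 and 51 (log2 fold change 4.19, SE 0.99, edgeR adjusted p = 0.024), and PCDHB4 from 6 and 8 reads to 63 and 44 (4.17, SE 0.61, adjusted p = 0.0081). PCDHB2 went from 5 and 11 reads to 47 and 48 (3.78, SE 0.76, adjusted p = 0.017). PCDHB8 went from 4 and 4 reads to 26 and 18 (3.71, SE 0.63, adjusted p = 0.012), the smallest auxin counts of any member called. PCDHB5 went from 3 and 14 reads to 52 and 42 (3.61, SE 0.97, adjusted p = 0.030), and PCDHB16 from 4 and 13 reads to 46 and 32 (3.35, SE 0.87, adjusted p = 0.029). The other called PCDHB members, which were PCDHB1, PCDHB6, PCDHB11, PCDHB14 and PCDHB15, had log2 fold changes from 1.54 (PCDHB14) to 3.30 (PCDHB11). With SEs of 0.47 to 1.39 among the called PCDHB members, neighbours in this order lay within 1 SE of each other, except PCDHB14 at the lower end.

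The members with the highest control levels had the smallest log2 fold changes. The same control reads enter both values, so the order is not an independent result. In RPKM, PCDHGA1 rose from 0.185 to 1.70 and PCDHB3, with a larger fold change, from 0.042 to 1.42. PCDHB13 had 39 and 25 control reads, then 32 and 25 with auxin (log2 fold change 1.18, SE 0.47, edgeR adjusted p = 0.074) and was not called. PCDHB14 had 41 and 34 reads, then 55 and 34 (1.54, SE 0.47, adjusted p = 0.039). PCDHGA1 had 85 and 60 reads, then 197 and 145 (2.56, SE 0.33, adjusted p = 0.0063). PCDHB10, with 0 and 8 reads and then 29 and 17, had a large but loosely estimated difference (3.61, SE 1.36, adjusted p = 0.067). Summed by subcluster, log2 fold changes were 4.99 for PCDHA, 3.16 for PCDHB and 2.56 for PCDHG (edgeR adjusted p = 0.0042, 0.0093 and 0.0064). In the PCDHB sum the split of reads between similar members does not matter. The PCDHA sum is PCDHA1 alone and the PCDHG sum is almost only PCDHGA1, so both repeat the results of single members.

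The rise of the members took place beside a rise of silent genes in general, and these are shares of a library, in which more RNA of a gene per cell, more cells with it and less RNA of other genes cannot be told apart. Among 2904 silent genes tested, the median log2 fold change was 2.51, and 77.8% were called higher. The 137 silent genes of chromosome 5 had a median of 2.53, with 119 called higher (86.9%, against 88.9% of the members tested). After the background density was subtracted from every model, 16 of 17 members tested were called higher, against 27.7% of all genes tested. Counts that turned negative were set to 0. Most members kept few control reads and passed the filter through the auxin libraries, where they were higher. The share of silent genes called after subtraction was not computed. PCDHB10 then failed the filter and PCDHB13 was not called. Of the 17, 5 had no control reads left. The median log2 fold change was 6.25 as fitted and 6.05 with those 5 set to the bound from 3 reads over both controls.

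What was left after subtraction differed between members. PCDHA1 kept 9 and 0 control reads, then 251 and 113 auxin reads. PCDHB3 kept 0 and 0 control reads, then 43 and 43 auxin reads. PCDHB14 kept 36 and 22 reads, then 36 and 12, and PCDHB13 kept 35 and 15, then 15 and 5. For these last 2 genes, a higher share after auxin rested on smaller remaining library totals (8871217 and 4703903 reads, against 61263305 and 33686857 in the controls) and not on more reads.

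Short models vary more in density than long ones, and the members were also set against the 823 silent models of 2000 to 10000 bp. After auxin, 14 of 18 members in library 1 and 11 of 18 in library 2 exceeded the 95th percentile of these models (10.4 and 9.81 reads per kb), and 3 and 4 of 18 did so in the controls. PCDHA1, PCDHB1 to PCDHB7, PCDHB12, PCDHB15 and PCDHGA1 were above it in both auxin libraries. PCDHB8, PCDHB10, PCDHB13 and PCDHB16 were below it in both. Base composition moved little with density in the silent models (Spearman's rho across genes −0.096 and −0.094 after auxin, over 771 models with a GC value), and the PCDHB models had a GC content of 39.96 to 53.9%, inside the 5th to 95th percentile of the silent models (36.5 to 64.5%).

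Members share sequence, which can remove reads that match several of them. Shares were taken over the longest annotated transcript of each gene, which can differ in length from the counted model. For PCDHB1 it held 7924 stretches against 2587 bp counted, so these are not shares of the counted bases. Of the 50-base stretches of PCDHB8, 45.4% recur in another PCDHB gene, most of them in PCDHB13 (32.4%). PCDHB10 shares 31.6%, mainly with PCDHB9 (24.1%), whereas PCDHB7 shares 9.43% and PCDHB1 none. Over the 16 PCDHB members, multiples of background and the shared percentage had a rank correlation of −0.44 and −0.37 in the auxin libraries and of −0.27 and −0.36 in the controls. These points share libraries and sequence, and the sources used here do not say how reads with several matches were treated. Levels of PCDHB8, PCDHB10 and PCDHB13 (23.3% shared) are therefore uncertain. The same holds for PCDHB9, PCDHB2 and PCDHB3, which share 21.5%, 20.45% and 19.48%.

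The 2 controls were not alike. Between control 1 and control 2 the member median differed by −1.75 on the log2 scale, and between the auxin libraries by 0.009. Each auxin library exceeded both controls in CPM for 18 of 19 members (all but PCDHGB7), as it did for 56.0% of all 18638 models. The member median over the 4 single-library pairings ranged from 2.64 (auxin 1 against control 2) to 4.60 (auxin 1 against control 1). Without auxin library 1 or 2 only PCDHA1 was still called, while the share of all genes called higher also dropped, to 0.41% and 1.23%. The member median in these fits was 3.56 and 3.58. Without control 1 or 2, 17 members were called, against 35.0% and 38.3% of all genes called higher.

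**Figure D2:**
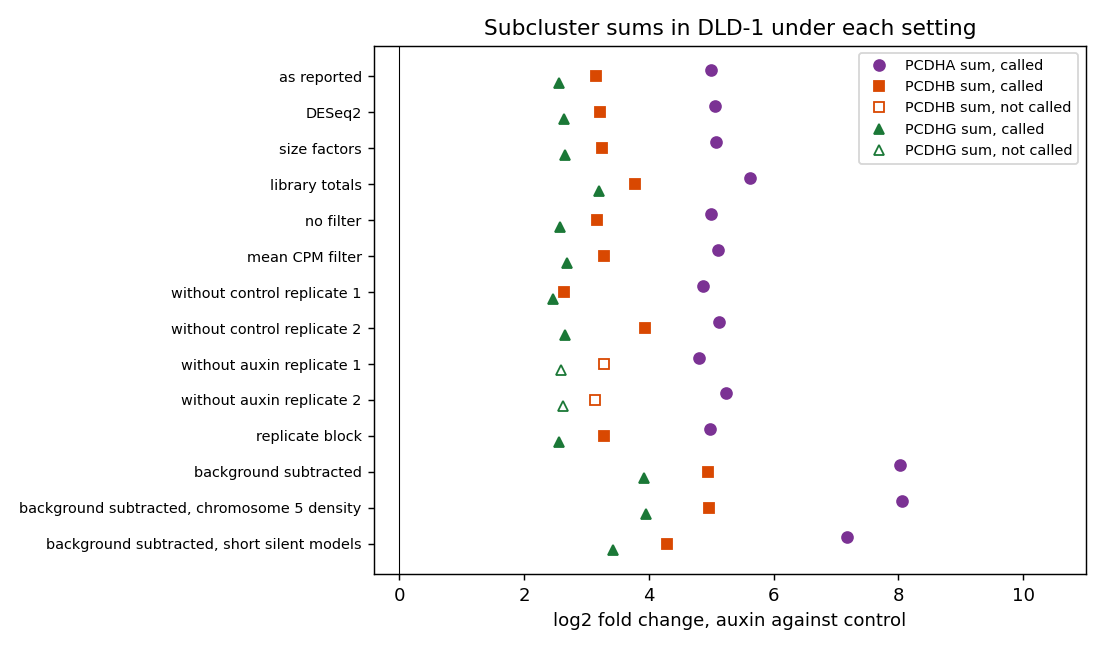
Log2 fold change, auxin against control in DLD-1 (horizontal axis), of the summed reads of PCDHA, PCDHB and PCDHG members under each way of processing (vertical axis). The PCDHA sum is PCDHA1 alone, and the PCDHG sum is PCDHGA1 with the few reads of PCDHGB7. Filled symbols were called at an adjusted p under 0.05. The PCDHA sum was called throughout, whereas the PCDHB and PCDHG sums were not called when either auxin library was left out.

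Genes around and between the clusters moved differently. Of 28 other models within 500 kb, 3 were called higher and 13 lower in DLD-1, with a median log2 fold change of −0.97. Over all genes tested, 32.2% were called higher and 35.0% lower. Scaled by library totals alone, 5 of the 28 were called higher and 6 lower, against 7544 and 3377 of all 17625 genes. TAF7, a subunit of the general transcription factor TFIID whose gene lies between the PCDHB and PCDHG models, fell from 71.6 ± 3.5 to 35.7 ± 5.5 CPM (−1.64, SE 0.21, edgeR adjusted p = 0.0062). SLC25A2, a mitochondrial ornithine carrier encoded beside it, had a difference of −1.35 (SE 0.49, adjusted p = 0.060). The 3 called higher were PCDH12, CD14 and SLC4A9 (log2 fold changes 2.91, 2.05 and 1.05), with PCDH12 and CD14 under 0.5 CPM in the controls. The largest falls were those of APBB3, RNF14, TAF7 and FCHSD1 (−2.33, −1.69, −1.64 and −1.53).

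**Figure D3:**
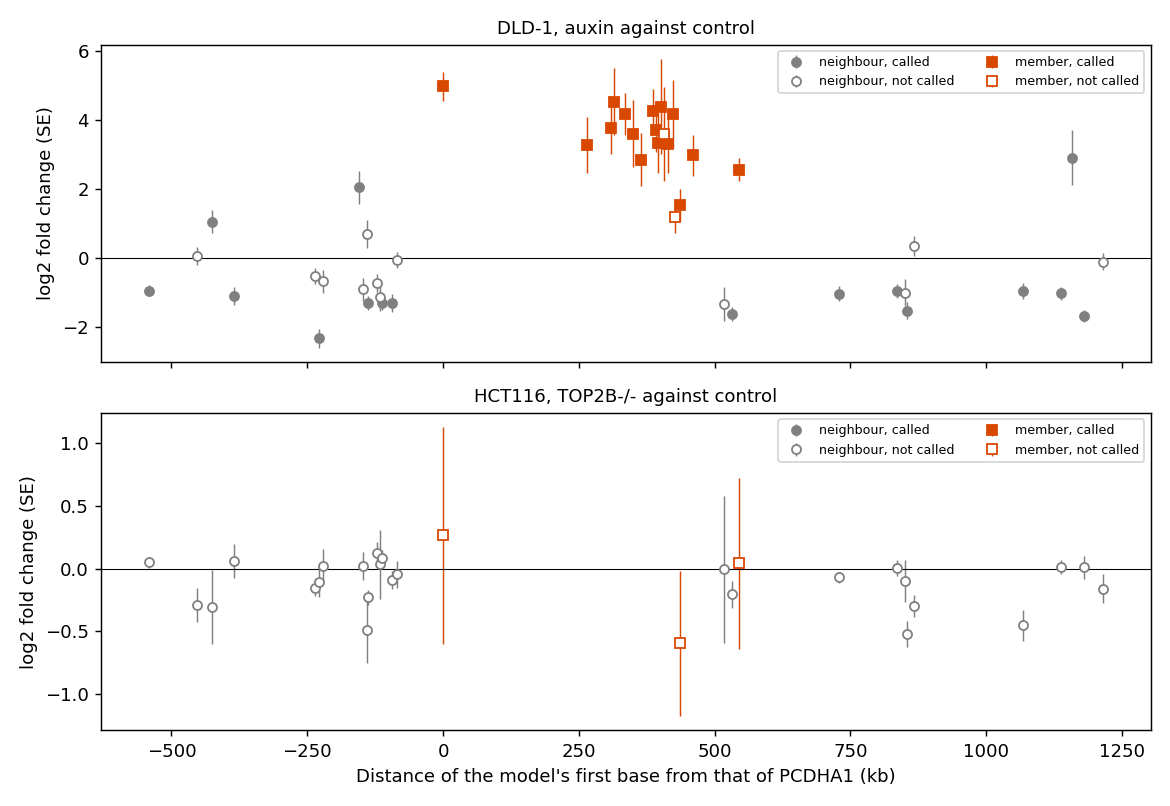
Log2 fold change with its SE (vertical axis) against the distance of each model's first base from that of PCDHA1 in kb (horizontal axis), for tested members (orange squares) and other models within 500 kb (grey circles), in DLD-1 (upper) and HCT116 (lower, on a different vertical scale). Filled symbols were called. In DLD-1 the members lie between 1.18 and 4.99 while TAF7 in their midst lies at −1.64, and in HCT116 no model shown was called by edgeR.

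Non-clustered protocadherins, which sit elsewhere in the genome or outside the clusters, also changed in DLD-1. Of 11 measured, 9 were called higher and 1 lower, with a median log2 fold change of 2.47. The 2904 silent genes tested had a median of 2.51, with 77.8% called higher. The largest were PCDH8, PCDH12, PCDH18 and PCDH10 (3.51, 2.91, 2.88 and 2.59), and the one lower was PCDH1 (−0.97, 41.3 to 32.8 CPM), which was not called with library totals. Of 12 regulators of the clusters, 0 were called higher and 9 lower. Over all 17625 genes tested, 32.2% were called higher and 35.0% lower. SMC3, a core cohesin subunit, fell from 201 ± 3 to 43.4 ± 4.5 CPM (−2.85, SE 0.19, edgeR adjusted p = 0.0042), and SETDB1, a histone methyltransferase, SMCHD1, a silencing factor of the clusters, and CTCF had log2 fold changes of −2.40, −2.09 and −2.08. DNMT3B, SMC1A and TRIM28 were not called. The count of 9 lower also held with library totals, where 3377 of all 17625 genes were called lower.

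Of 8 partners and processing enzymes, 1 was called higher and 6 lower, against 32.2% and 35.0% of all genes tested. RET, a receptor kinase that protocadherins associate with, had a log2 fold change of 2.69 from 1.60 CPM in the controls, and the kinases PTK2, FYN and PTK2B and the scaffold AXIN1 had −2.04, −2.02, −1.12 and −0.95. ADAM10, the protease that sheds protocadherin ectodomains, was not called (−0.55, edgeR adjusted p = 0.11). With library totals, RET was called higher and only PTK2 and FYN lower.

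Most markers of other cell types were also higher after auxin in DLD-1. Silent genes in general had a median log2 fold change of 2.51, with 77.8% called higher. Of 7 neuron markers 5 were called higher and of 7 fibroblast markers 6 were, with 0 lower in either list. Median log2 fold changes of these lists were 2.39 and 2.87. The summed level of the neuron markers was 131 and 215 CPM in the controls, then 482 and 738 with auxin, and that of the fibroblast markers was 6.58 and 14.2, then 58.8 and 84.9. No marker of either list was at 0 in any DLD-1 library. Of 7 colon epithelium markers, 2 were called lower (CDX2 and KRT18, log2 fold changes −3.51 and −1.72) and 0 higher (EPCAM and VIL1 with library totals). Over all genes tested, 35.0% were called lower. The sum of the 7 markers ranged from 4296 to 5277 CPM in the controls and from 4614 to 6115 after auxin. The part of these genes in the result was not tested.

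In HCT116 the members counted were near the limit of detection in all 4 libraries. The 19 members held 101 and 73 reads in the controls and 72 and 91 in the libraries labelled TOP2B-/- (at most 3.04 CPM). Background was also low, at 0.52 and 0.083 reads per kb in the controls. The median multiple of background over 18 members was 2.02 and 5.57 in the controls, then 1.48 and 1.29. PCDHB14 stood at 14.0 and 66.7, then 11.2 and 4.71. At such densities single reads move these multiples. Only 3 members passed the filter on low counts, and 0 of them were called, with 0 at an unadjusted p under 0.05, against 3.41% of all 15273 genes called and 22.9% at an unadjusted p under 0.05. DESeq2 gave none of the 18 members with reads an adjusted p, and 0 had an unadjusted p under 0.05 there. At these counts a change in the other members was not detectable.

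PCDHB14 was the member with the highest mean level per kb in the HCT116 controls. It had 29 and 22 reads in the controls and 17 and 16 in the libraries labelled TOP2B-/-, lower in both, at 0.186 ± 0.048 and 0.125 ± 0.002 RPKM (log2 fold change −0.59, SE 0.58, edgeR adjusted p = 0.60). PCDHGA1 had 16 and 16 reads, then 13 and 19 (0.04, SE 0.68, adjusted p = 0.97). PCDHA1 had 10 and 12 reads, then 18 and 8 (0.26, SE 0.86, adjusted p = 0.86). The last 2 overlapped between groups, and the 3 differences were all close to or below 1 SE.

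PCDHB16 had 10 reads in control 1 and 1, 1 and 5 in the others. PCDHB11 had 4 and 4 reads in the controls, then 1 and 4. The remaining PCDHB members had 0 to 5 reads in every library. In CPM, 3 members (PCDHB3, PCDHB4 and PCDHB6) were higher in both libraries labelled TOP2B-/- than in both controls, 1 (PCDHB14) was lower in both and 15 overlapped. Over all 18638 models, 28.2% were higher in both and 22.7% lower in both. The subcluster sums had log2 fold changes of 0.26 for PCDHA, −0.16 for PCDHB and 0.04 for PCDHG (edgeR adjusted p = 0.86, 0.85 and 0.97). The PCDHA sum is PCDHA1 alone, and the PCDHG sum holds reads of PCDHGA1 alone.

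**Figure D4:**
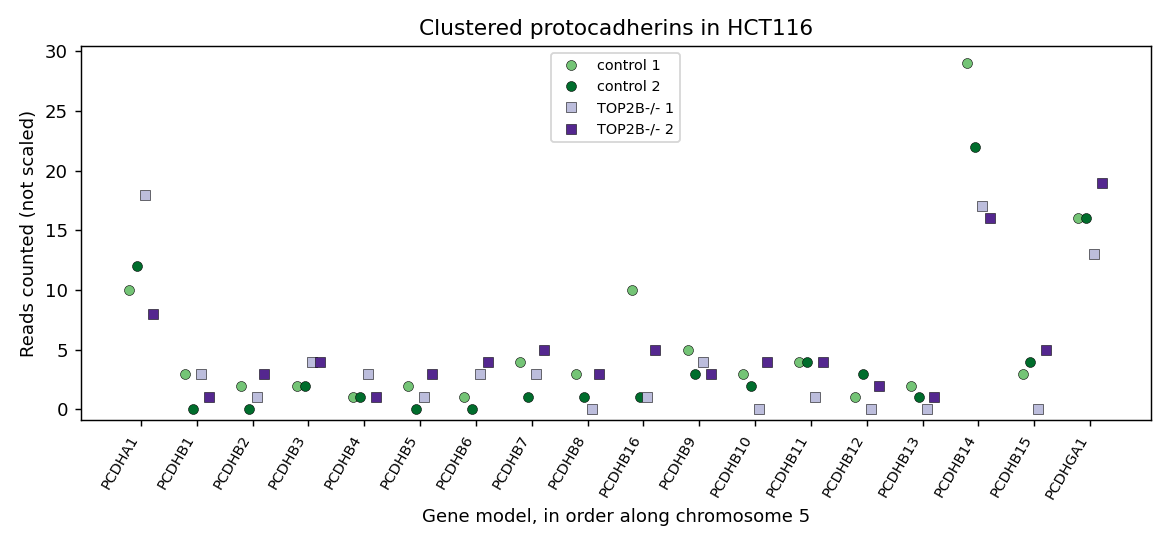
Reads counted per member in HCT116, not scaled for depth (vertical axis), in order along chromosome 5 (horizontal axis). Circles are the 2 controls and squares the 2 libraries labelled TOP2B-/-. PCDHB14, PCDHGA1 and PCDHA1 hold 8 to 29 reads in each library, and with the exception of PCDHB16 in control 1 the other members hold at most 5.

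Around the clusters, 0 of 26 neighbouring models tested in HCT116 were called by edgeR, with 4 at an unadjusted p under 0.05, and DESeq2 called 3 lower (FCHSD1, IK and PCDH1). Of 6 non-clustered protocadherins tested, PCDH7 alone was called, from 102 ± 12 to 422 ± 2 CPM (log2 fold change 2.02, SE 0.07, edgeR adjusted p = 0.018). Of the 12 regulators, DNMT3B, a DNA methyltransferase encoded on chromosome 20, was called lower (−0.48, SE 0.06, adjusted p = 0.045) and CTCF and SMCHD1 were not called. Of the 8 partners and processing enzymes, 0 were called by edgeR (1 at an unadjusted p under 0.05) or by DESeq2. SYT1 among the neuron markers was called higher (1.92) and CDH1 among the colon markers lower (−0.69), while 0 of 5 fibroblast markers tested were called by edgeR (1 at an unadjusted p under 0.05) and 1 by DESeq2 (COL1A1, lower). DESeq2 called more in the other lists, with 4 colon markers lower (CDH1, EPCAM, KRT8 and KRT18), 2 neuron markers higher (SNAP25 and SYT1), 2 regulators lower (DNMT3B and TRIM28), and PCDH1 lower beside PCDH7 higher.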

How the data were processed

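Nascent RNA was measured by factory-seq with TruSeq RNA libraries in 8 samples. The authors deposited raw read counts for 18638 gene models, 1 table per cell line, with introns inside the counted span. The submitters' processing notes name STAR, DESeq2 and hg38, and the tables carry the name irnaseq; the sources used here do not give versions, the use of strand or the handling of reads with several matches. The authors' tables of changed genes, with fold changes, p-values and normalized signal, were not used. No method was taken from the accompanying paper, whose experiment is a different one. Samples were grouped from their labels; nothing says that replicates came from separate cultures, so p-values may measure technical spread only. Intervals and floors cover counting error only.

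Each cell line was fitted on its own 4 libraries with edgeR 4.0.16 (quasi-likelihood, TMM, filterByExpr, two-sided, Benjamini-Hochberg over all genes tested at 0.05) in R 4.3.3, tested on simulated data. Levels per kb used the counted length. Background was the median reads per counted base of silent genes, the 20% of models with the lowest control levels in the other cell line, ranked within each chromosome. GC content came from GRCh37 gene bodies by symbol, and shared stretches from the longest GENCODE transcript of each PCDHB gene. Alternatives were DESeq2 1.42.0, other scalings and filters, background subtraction, leaving out each replicate and a replicate block. Members and gene lists were chosen with earlier results of these data known. Members with the highest control levels, the 10 largest changes among those called, and called genes of each list (at most 4 a direction) were named; others with values were chosen after seeing them.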

Additional observations from a re-analysis of the deposited data

How the results depend on the processing

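In DLD-1, 15 to 17 members were called higher under every setting that kept all 4 libraries, and 1 to 17 when a library was left out (1 without either auxin library, where 0.41% and 1.23% of all genes were called higher, and 17 without either control). Over all genes, the settings that kept all 4 libraries called 3862 to 7544 higher, among 14183 to 18380 tested. The member median was 6.25 after background subtraction and 6.30 with the density of chromosome 5. With that of short silent models (added after seeing the data) it was 4.92. When a library was left out it ranged from 2.63 to 4.80. With members lacking control reads set to their bound, the first 2 medians were 6.05 and 6.02. Leaving out a library gave PCDHB sums of 2.64 to 3.93 and PCDHG sums of 2.47 to 2.66, not called without auxin replicate 1 (adjusted p = 0.076 and 0.069) or 2 (0.074 and 0.064). These fits take the spread of a lone library to equal that of the remaining pair. The PCDHA sum, which is PCDHA1 alone, was called in all settings. Scaling by library totals moved the median of all DLD-1 genes from −0.06 to 0.57 and the calls from 5678 higher and 6177 lower to 7544 and 3377, with a member median of 4.21 and 17 members called. PCDHB13 was called only then (1.81), PCDHB9 was not called with size factors and PCDHB5 not with the chromosome 5 density.

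In HCT116, 0 members were called in any setting, and a filter on mean CPM left no member to test. PCDHB14 kept its direction throughout (−0.88 to −0.34), and the other results turned in some settings. The member median was −0.078 with DESeq2, −0.061 without a filter, −0.20, −0.25 and −0.083 after the 3 subtractions, and −0.47 to 0.08 when a library was left out. The PCDHG sum and PCDHGA1 were at −0.20, −0.25 and −0.083 after the same subtractions and at −0.30 to 0.28 with a library left out. The PCDHA sum and PCDHA1 were at −0.21 with the chromosome 5 density and at −0.42 to 0.70 with a library left out, and the PCDHB sum at −0.58 to 0.30. The causes were not tested.

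Replicate numbers are shared between groups without a stated pairing, and the deviations of same-numbered libraries correlated at 0.57 in DLD-1 and −0.83 in HCT116. With a replicate block, 16 DLD-1 members were called higher, as were 6444 of all 17625 genes tested. The member median was then 3.80 and the sums were 4.98, 3.28 and 2.57. In HCT116 0 members were called with the block (median 0.01). Over all HCT116 genes the block gave 0 calls and crossed numbers, added after seeing the data, 1808. Per full span instead of counted length, the auxin level of PCDHA1 was 0.079 and that of PCDHGA1 0.075 RPKM. Counts of 0 to 5 reads limit HCT116, and 2 libraries a group limit both lines.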
